A study of Homo sapiens with 8 samples.

Results

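The comparison set MCF10A cells given the ATR inhibitor AZD6738 together with ionizing radiation (AZD6738+IR) against cells given the solvent DMSO, across every gene that the deposited expression table names by symbol. MCF10A is a line of human breast epithelial cells that grows without limit but does not form tumours, kept here in medium with horse serum, EGF, hydrocortisone, cholera toxin and insulin. The 4 groups were AZD6738+IR (250 nM AZD6738 and 20 Gy), IR (DMSO and 20 Gy), AZD6738 (250 nM, not irradiated) and DMSO (not irradiated), with 2 total RNA libraries in each of them. Drug or solvent was present from 2 hours ahead of the radiation until 3 days of treatment had passed. Of 14645 loci in the table, 9463 carried a symbol after the entry with the highest mean had been kept for each repeated symbol, and all of these genes are members of the comparison. A mean of at least 1 FPKM (fragments corrected for transcript length and library size) over the 8 libraries was reached by 8666 of them, and these were tested. Libraries are called A and B, and values of a group are given in that order.

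ATR is a kinase that is recruited to single-stranded DNA at stalled forks and resected breaks, where it activates CHEK1 and delays mitosis. Cells that divide with unrepaired breaks can release DNA and RNA into the cytosol, where the cGAS-STING pathway senses DNA and the RIG-I-like receptors sense RNA. Both pathways lead to interferons of type I and type III, which act through JAK and STAT proteins on a large set of interferon-stimulated genes. The title of the series asks whether ATR inhibition strengthens this interferon response to radiation through cytosolic nucleic acid sensing. Whether the A and B libraries were grown as separate cultures is not stated in the labels. All p-values therefore measure only how far such libraries scatter, and that scatter may be technical. In such bulk samples a change in RNA per cell and a change in the share of cells cannot be told apart.

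The labelled cell type was checked first. Of 8 markers of basal-like breast epithelium, 6 had a symbol in the table (KRT14, KRT17, TP63, EGFR, CDH1 and EPCAM) and all 6 were present in each group. KRT14, a keratin of basal cells, stood at 649 and 629 FPKM in AZD6738+IR, against 410 and 445 FPKM in DMSO. KRT17 and CDH1 rose as well, whereas TP63, EPCAM and EGFR fell. EPCAM, an adhesion protein of epithelia, stood at 19.1 and 18.2 FPKM in AZD6738+IR, against 26.3 and 26.9 FPKM in DMSO, and EGFR at 17.7 and 16.3 FPKM, against 21 and 18.9 FPKM. FOXA1, a factor of luminal cells, was low, at 4.41 and 4.07 FPKM in AZD6738+IR, against 2.93 and 3.04 FPKM in DMSO. Of 22 markers of blood, immune and endothelial cells 4 had a symbol (CD14, CD68, CSF1R and KDR), and their summed level was 31.4 and 28.8 FPKM in AZD6738+IR, against 25.1 and 24.9 FPKM in DMSO. DCN was the only one of 5 fibroblast markers with a symbol, at 4.55 and 4.31 FPKM in AZD6738+IR, against 2.32 and 2.68 FPKM in DMSO. The part of such cells in the results was not tested. Library B of AZD6738+IR stood apart in composition: the 4 most abundant loci took 57.7% and 62.37% of the summed FPKM in AZD6738+IR, against 54.6% and 54.46% in DMSO. Without that library 2302 named genes were called higher and 3854 lower.

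The combined treatment changed most of the transcriptome. Of the 8666 named genes tested, 2383 were higher and 4060 lower in AZD6738+IR than in DMSO at a Benjamini-Hochberg adjusted p under 0.05 in limma's test on log2(FPKM + 1). These are 74.3% of the named genes, 27.5% as higher and 46.8% as lower. Over all 12809 loci tested, named or not, 72.7% were called, 27.1% as higher and 45.6% as lower, and every count of list members given for this comparison is to be read against those shares. The median log2 fold change of the named genes was -0.16, so a typical gene stood slightly lower in AZD6738+IR. Centring each library on its median moved that value to -0.07 and the counts to 2745 higher and 3652 lower, so the balance of higher and lower calls depends in part on the scaling. Most changes were small, with 90% of named genes between -1.21 and 1.29. Falls outnumbered rises, but large changes were mostly rises: 205 named genes were called and higher by at least 2 on the log2 scale, and 79 were called and lower by at least 2. Some of the 205, IFNL1 and IFNB1 among them, reached the filter only through the AZD6738+IR libraries and so had to differ. The contrast of 205 with 79 rests in part on such genes. A principal component analysis of the log values put 69.3% of the variance on its first axis, where the AZD6738+IR libraries lay at 61.62 and 59.67 and the IR libraries at 16.15 and 15.46. The DMSO libraries lay at -40.82 and -39.17, close to the AZD6738 libraries at -36 and -36.91. Beside this comparison, 61.8% of all loci were called between IR and DMSO, and 72.4% between AZD6738+IR and AZD6738. Between AZD6738 and DMSO 0.148% were called, 0.0937% as higher and 0.0546% as lower. Each of these comparisons shares libraries of DMSO, AZD6738+IR or both with the main one, so values are set side by side below and no overlap is counted.

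**Figure D1:**
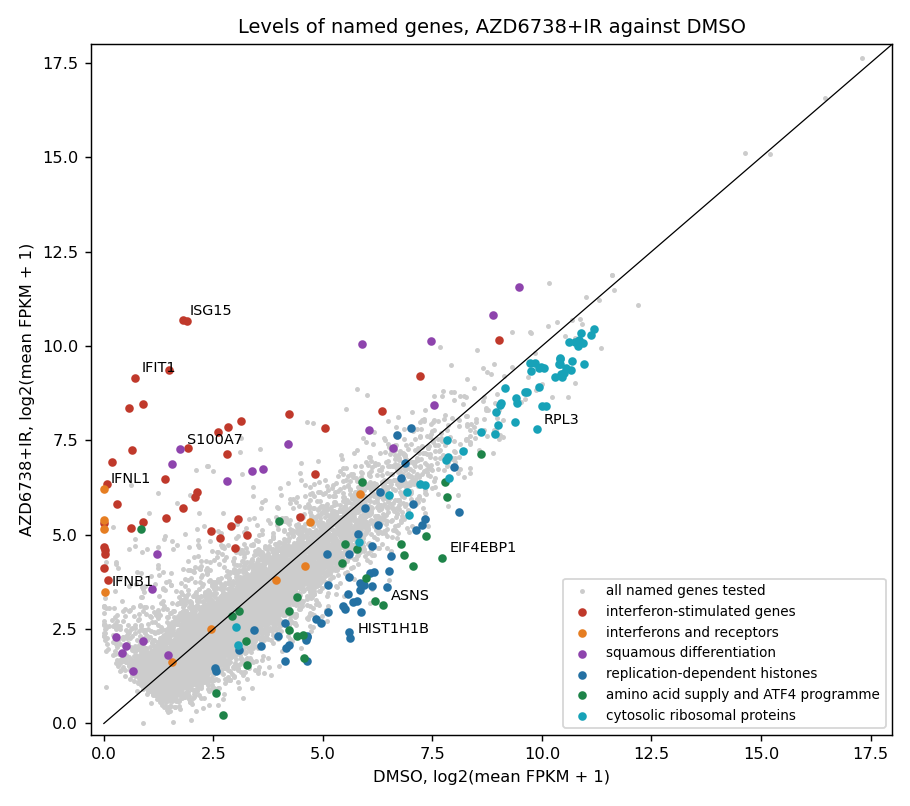
Each point is a named gene, with its mean level in DMSO on the horizontal axis and in AZD6738+IR on the vertical axis, both as log2(mean FPKM + 1). Points on the line have equal levels. Interferon-stimulated genes and interferons lie far above the line from low DMSO levels, whereas histones, genes of the amino acid list and ribosomal proteins lie mostly below it.

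Interferon genes were at or near 0 in DMSO and were clearly present after the combined treatment. IFNL1 (chr19:39296407-39298673 in GRCh38.p14, the RefSeq build used for all positions), which encodes a type III interferon that acts on epithelia, stood at 77.6 and 69.8 FPKM in AZD6738+IR, at 0.116 and 0.253 FPKM in IR, and was listed at 0 in both DMSO libraries. IFNL2 stood at 36.3 and 33.2 FPKM and IFNL3 at 40.4 and 41.4 FPKM in AZD6738+IR, and both were listed at 0 in both DMSO libraries. These 2 genes are near-identical, so their separate levels are uncertain. IFNB1 (chr9:21077104-21077942), the type I interferon beta, stood at 9.8 and 10.7 FPKM in AZD6738+IR, at 0.0196 and 0.0776 FPKM in IR, and at 0.0209 and 0 FPKM in DMSO. All 4 stood above DMSO, with log2 fold changes between 3.48 and 6.22, and above IR as well. They passed the filter on low levels only through the AZD6738+IR libraries and so had to differ. No p is given for them, and their count is not evidence about the list. The receptors moved little. IFNAR1 stood at 4.49 and 4.87 FPKM in AZD6738+IR, against 4.34 and 4.51 FPKM in DMSO (limma adjusted p = 0.289), and IFNAR2 did not pass either (limma adjusted p = 0.255). JAK1, a kinase shared by these receptors, rose 1.57-fold to 40.2 and 38.9 FPKM in AZD6738+IR, against 25.3 and 25.2 FPKM in DMSO. IL10RB, a subunit of the type III receptor, was 1.11-fold lower, and the IL10RB log2 fold change of -0.14 lost its call without library B of DMSO, either AZD6738 library or either AZD6738+IR library (limma adjusted p between 0.0775 and 0.196). Of the 10 tested genes of interferons and receptors, 6 were higher and 1 lower, with a median log2 fold change of 0.42.

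Genes of nucleic acid sensing moved in both directions. Of 11 tested, 6 were higher and 4 lower, with a median of 0.27. IFIH1 (chr2:162267074-162318684), which encodes the RNA sensor MDA5, stood at 111 and 113 FPKM in AZD6738+IR, at 6.47 and 6.93 FPKM in IR, and at 3.9 and 4.25 FPKM in DMSO. It was 27.5-fold higher than in DMSO, with a log2 fold change of 4.48 ± 0.05 (SE) and limma adjusted p = 2.11e-07. TLR3, the endosomal receptor of double-stranded RNA, stood at 36.5 and 36.3 FPKM in AZD6738+IR, against 3.83 and 3.91 FPKM in DMSO, and TMEM173, which encodes the adaptor STING, at 38.7 and 35.5 FPKM, against 10.4 and 10.2 FPKM. Both rose. MB21D1, which encodes the DNA sensor cGAS, stood at 7.39 and 8.02 FPKM in AZD6738+IR, against 8.57 and 8.09 FPKM in DMSO, and did not pass (log2 fold change -0.1 ± 0.05, limma adjusted p = 0.144). For this gene the groups lie next to each other, whereas for IFIH1 they are far apart. RNASEH2A and RNASEH2B belong to RNase H2, which cuts RNA out of RNA-DNA hybrids, and both fell: RNASEH2B stood at 4.82 and 4.93 FPKM in AZD6738+IR, against 13.8 and 13.6 FPKM in DMSO. Their falls were similar in size in IR, where RNASEH2B stood at 5.36 and 5.73 FPKM. RIGI, MAVS, TBK1, TREX1 and IFI16 had no matching symbol in the table and were not analysed here.

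**Figure D2:**
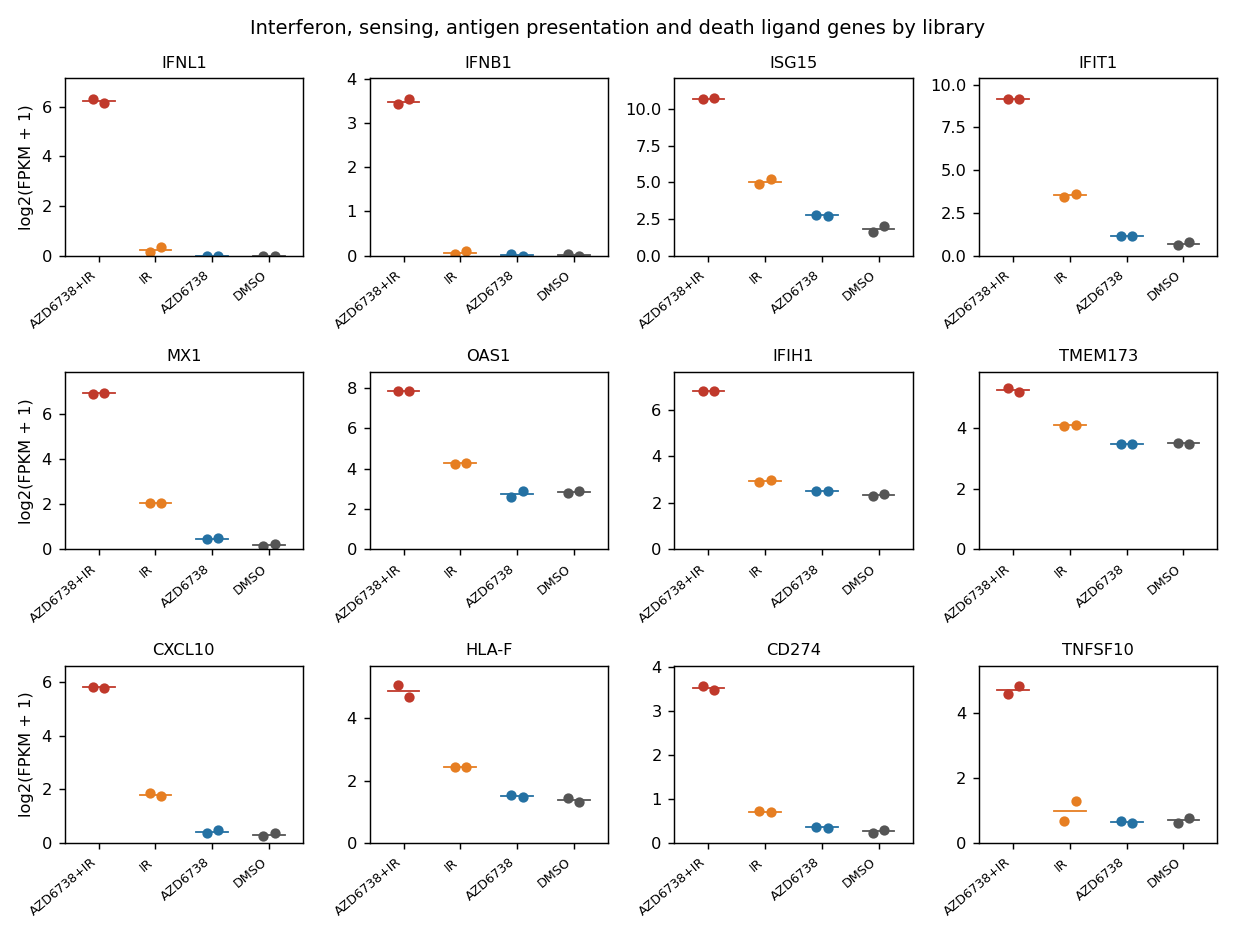
Each panel gives log2(FPKM + 1) of a gene in the 8 libraries, as points, with the group mean as a line and the groups AZD6738+IR, IR, AZD6738 and DMSO from left to right. In all 12 panels both AZD6738+IR libraries lie above all other libraries. The vertical scale differs between panels.

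Interferon-stimulated genes gave the largest rises of the comparison. Of 62 genes on the list 41 had a symbol in the table, all 41 were tested, and all 41 were higher in AZD6738+IR, with log2 fold changes between 1.01 (TRIM25) and 8.9 (ISG15) and a median of 4.45. Of these, 8 reached the filter only through the AZD6738+IR libraries, so they had to differ. The list summed to 10150 and 9812 FPKM in AZD6738+IR, to 1391 and 1385 FPKM in IR, and to 937.9 and 936.2 FPKM in DMSO. A group mean of at least 100 FPKM was reached by 18 of the 41 genes in AZD6738+IR, by 3 in IR and by 2 in DMSO. A mean of at least 10 FPKM was reached by 41, 18 and 7 genes in the same order.

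ISG15 (chr1:1013497-1014540), a ubiquitin-like protein that is coupled to viral and host proteins, stood at 1604 and 1696 FPKM in AZD6738+IR, at 28.6 and 35.8 FPKM in IR, and at 1.99 and 2.98 FPKM in DMSO. That is 663-fold above DMSO, with a log2 fold change of 8.9 ± 0.16 (SE) and limma adjusted p = 6.26e-07. IFI6 (chr1:27666064-27672192), an interferon-induced protein of the endoplasmic reticulum and mitochondria, stood at 1691 and 1526 FPKM in AZD6738+IR, at 39.7 and 43.8 FPKM in IR, and at 2.32 and 3.11 FPKM in DMSO. The pair reached the level of the abundant housekeeping gene ACTB, which stood at 1389 and 1197 FPKM in AZD6738+IR, against 862 and 854 FPKM in DMSO. IFIT1 (chr10:89392623-89406487), which binds viral RNA without cap methylation, stood at 565 and 574 FPKM in AZD6738+IR, at 9.92 and 11.3 FPKM in IR, and at 0.542 and 0.709 FPKM in DMSO. IFIT3, its partner, stood at 644 and 667 FPKM in AZD6738+IR, against 1.45 and 2.14 FPKM in DMSO. OASL, an oligoadenylate synthetase homologue that has lost the enzyme activity, stood at 337 and 321 FPKM in AZD6738+IR, against 0.481 and 0.518 FPKM in DMSO. In all of these the 2 libraries of each group lay close together and the groups were far apart.

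MX1, a dynamin-like GTPase that blocks virus replication, stood at 120 and 122 FPKM in AZD6738+IR, at 3.21 and 3.22 FPKM in IR, and at 0.117 and 0.175 FPKM in DMSO. BST2, or tetherin, which holds budding virus at the membrane, stood at 140 and 159 FPKM in AZD6738+IR, against 0.652 and 0.461 FPKM in DMSO. RSAD2, or viperin, stood at 77.8 and 83.5 FPKM in AZD6738+IR, at 0.672 and 1.11 FPKM in IR, and at 0.0412 and 0.07 FPKM in DMSO. Genes of this kind were near 0 without treatment, so their folds rest on very low DMSO values. IRF7, a factor that amplifies interferon transcription, stood at 41.5 and 37.8 FPKM in AZD6738+IR, against 1.01 and 0.719 FPKM in DMSO, and it has 2 entries in the table. OAS1, which makes the second messenger that activates RNase L, stood at 231 and 227 FPKM in AZD6738+IR, against 5.85 and 6.3 FPKM in DMSO. IFI27, also with 2 entries, stood at 331 and 368 FPKM in AZD6738+IR, against 0.787 and 0.911 FPKM in DMSO. The chemokine CXCL10 (chr4:76021118-76023497), which attracts T cells, stood at 56 and 54.4 FPKM in AZD6738+IR, at 2.62 and 2.37 FPKM in IR, and at 0.187 and 0.291 FPKM in DMSO. CCL5, another chemokine, stood at 26.8 and 22.5 FPKM in AZD6738+IR and was listed at 0 in both DMSO libraries.

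Irradiation alone moved the same list far less. Its median log2 fold change against DMSO was 0.83 in IR and 0.08 in AZD6738. In the test of AZD6738+IR against IR, where 51.1% of all loci were called and 19.6% were called as higher, all 41 genes were higher, with a median of 3.39. ISG15 was 51.3-fold above IR (limma adjusted p = 7.12e-06) and MX1 37.6-fold (limma adjusted p = 4.43e-07).

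Promoter sequence was also read for groups of genes. The groups higher or lower by at least 2 were chosen by their levels, and some of the higher genes passed the filter only through the AZD6738+IR libraries. The listed interferon-stimulated genes were known as such beforehand, so their share is not separate support for the rise. The lists searched below for other motifs also hold genes grouped by known function, so their shares are not separate support for their changes either. Interferon-stimulated transcription is known to act through the ISRE, a repeat of GAAA bound by STAT and IRF factors. A core written GAAANNGAAA was searched on both strands from 250 bases before to 50 bases after the gene start in the RefSeq promoter table (GRCh38.p14), and matches may overlap. It was present in 21 of the 35 listed interferon-stimulated genes with a promoter in the table (60.0%), in 38 of 140 genes higher by at least 2 (27.1%), and in 1 of 66 genes lower by at least 2 (1.52%). The share was 2.96% among the 6797 named genes tested that had a promoter and 3.65% among all 27305 promoters. A match describes letters and is not a binding site. The following stretches come from genes with large rises and are printed on the strand of the gene, with each match in capitals. Matches on the opposite strand read as the reverse complement, with repeats of TTTC.
ISG15, chr1:1013365-1013424, plus strand: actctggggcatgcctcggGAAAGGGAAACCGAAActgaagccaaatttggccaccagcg
IFIT1, chr10:89392495-89392554, plus strand: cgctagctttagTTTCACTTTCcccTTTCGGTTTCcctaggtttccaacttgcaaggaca
IFI6, chr1:27672251-27672310, minus strand: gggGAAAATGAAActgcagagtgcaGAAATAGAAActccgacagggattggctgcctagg
BST2, chr19:17405720-17405779, minus strand: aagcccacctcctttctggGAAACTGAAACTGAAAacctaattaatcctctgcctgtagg
IFI27, chr14:94110616-94110675, plus strand: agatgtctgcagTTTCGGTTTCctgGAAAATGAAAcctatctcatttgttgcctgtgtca
IFNL1, chr19:39296174-39296233, plus strand: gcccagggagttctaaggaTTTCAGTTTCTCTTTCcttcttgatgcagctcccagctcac
CXCL10, chr4:76023684-76023743, minus strand: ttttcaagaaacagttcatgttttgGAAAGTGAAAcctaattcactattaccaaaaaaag
B2M, chr15:44711354-44711413, plus strand: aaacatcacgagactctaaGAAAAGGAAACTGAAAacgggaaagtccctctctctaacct
In ISG15, BST2, IFNL1 and B2M the printed matches overlap, so the core repeats without a gap, whereas CXCL10 has a single match. OAS1, RSAD2, HLA-B and WARS rose without these letters in the window, which says nothing about the factors.

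Antigen presentation by MHC class I, the display of cell peptides to T cells, rose in most of its parts. Of 19 tested genes 16 were higher and 1 lower, with a median log2 fold change of 1.8, against 0.61 in IR. Of the 19, 2 reached the filter only through the AZD6738+IR libraries and so had to differ, CD274 among them. B2M, the light chain of all class I molecules, stood at 983 and 1038 FPKM in AZD6738+IR, at 307 and 307 FPKM in IR, and at 174 and 231 FPKM in DMSO. HLA-F stood at 32.7 and 24.7 FPKM in AZD6738+IR, against 1.7 and 1.52 FPKM in DMSO, and HLA-B at 65.4 and 47.2 FPKM, against 2.12 and 2.23 FPKM. HLA-B has 3 entries in the table and B2M has 2, so their levels are uncertain, and near-identical class I genes may share reads. CD274 (chr9:5450542-5470554), which encodes PD-L1, the ligand that restrains T cells, stood at 10.8 and 10.1 FPKM in AZD6738+IR, at 0.648 and 0.62 FPKM in IR, and at 0.173 and 0.231 FPKM in DMSO. Its mean was 51.8-fold that of DMSO and 16.5-fold that of IR, and no p is given because of the filter. The 2 chaperones of the endoplasmic reticulum that load class I chains differed: CALR rose to 393 and 421 FPKM in AZD6738+IR, against 210 and 213 FPKM in DMSO, and CANX fell to 195 and 193 FPKM, against 321 and 334 FPKM. TAP2 and HLA-E did not pass (limma adjusted p = 0.5 and 0.142).

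Inflammatory factors and NF-kB targets rose as well, but a good part of that rise was already present in IR. Of 22 tested, 19 were higher, with a median log2 fold change of 1.7, against 1.05 in IR. Of the 22, 2 reached the filter only through the AZD6738+IR libraries, IL6 among them. CXCL1 (chr4:73869393-73871308), a chemokine for neutrophils, stood at 155 and 138 FPKM in AZD6738+IR, at 148 and 141 FPKM in IR, and at 7.41 and 7.8 FPKM in DMSO. It was 19.3-fold above DMSO (limma adjusted p = 6.23e-07) and overlapped IR (log2 fold change 0.02 ± 0.07 SE, limma adjusted p = 0.867). IL6 stood at 5.21 and 5.11 FPKM in AZD6738+IR, at 0.377 and 0.501 FPKM in IR, and at 0.0191 and 0 FPKM in DMSO. LIF, a cytokine of the same family, stood at 48.7 and 44.7 FPKM in AZD6738+IR, at 25.9 and 23.1 FPKM in IR, and at 3.68 and 3.34 FPKM in DMSO. PLAUR, the urokinase receptor, stood at 106 and 89 FPKM in AZD6738+IR, against 8.05 and 7.66 FPKM in DMSO. IL1A rose to 69.1 and 67.8 FPKM in AZD6738+IR, against 33.5 and 30.4 FPKM in DMSO, and was lower than in IR, where it stood at 93.3 and 86.7 FPKM. CXCL8 had no matching symbol and was not analysed here. A core of the NF-kB site, GGGNNTTTCC on either strand, was present in 9 of the 19 promoters of this list (47.4%), against 2.07% of the named genes tested and 1.92% of all promoters. The stretches of CXCL1 and of TNFAIP3, which encodes the NF-kB inhibitor A20, show 1 and 2 matches.
CXCL1, chr4:73869289-73869348, plus strand: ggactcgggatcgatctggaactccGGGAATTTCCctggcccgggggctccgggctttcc
TNFAIP3, chr6:137867179-137867238, plus strand: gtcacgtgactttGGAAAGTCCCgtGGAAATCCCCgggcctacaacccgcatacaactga

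Death receptor and caspase genes were mixed, with 17 of 28 tested higher and 6 lower and a median of 0.45. Of the 28, 2 reached the filter only through the AZD6738+IR libraries and so had to differ, TNFSF10 among them. TNFSF10 (chr3:172505508-172523430), the death ligand TRAIL, stood at 22.8 and 27.2 FPKM in AZD6738+IR, at 0.605 and 1.46 FPKM in IR, and at 0.537 and 0.719 FPKM in DMSO. Its mean was 39.8-fold that of DMSO, and the IR and DMSO libraries overlapped. CFLAR, which blocks caspase activation at death receptors, rose to 10.5 and 10.3 FPKM in AZD6738+IR, against 2 and 2.29 FPKM in DMSO. BCL2L2, an inhibitor of apoptosis, was among the members that fell, to 9.42 and 9.89 FPKM in AZD6738+IR, against 16.7 and 16 FPKM in DMSO, as did CYCS, cytochrome c, and BCL2L12. TNFRSF10D, a decoy receptor of TRAIL that belongs to the list of genes induced by DNA damage, fell to 14.2 and 14.6 FPKM in AZD6738+IR, against 26.7 and 27.5 FPKM in DMSO, whereas it stood higher in IR, at 34.5 and 34.1 FPKM.

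**Figure D3:**
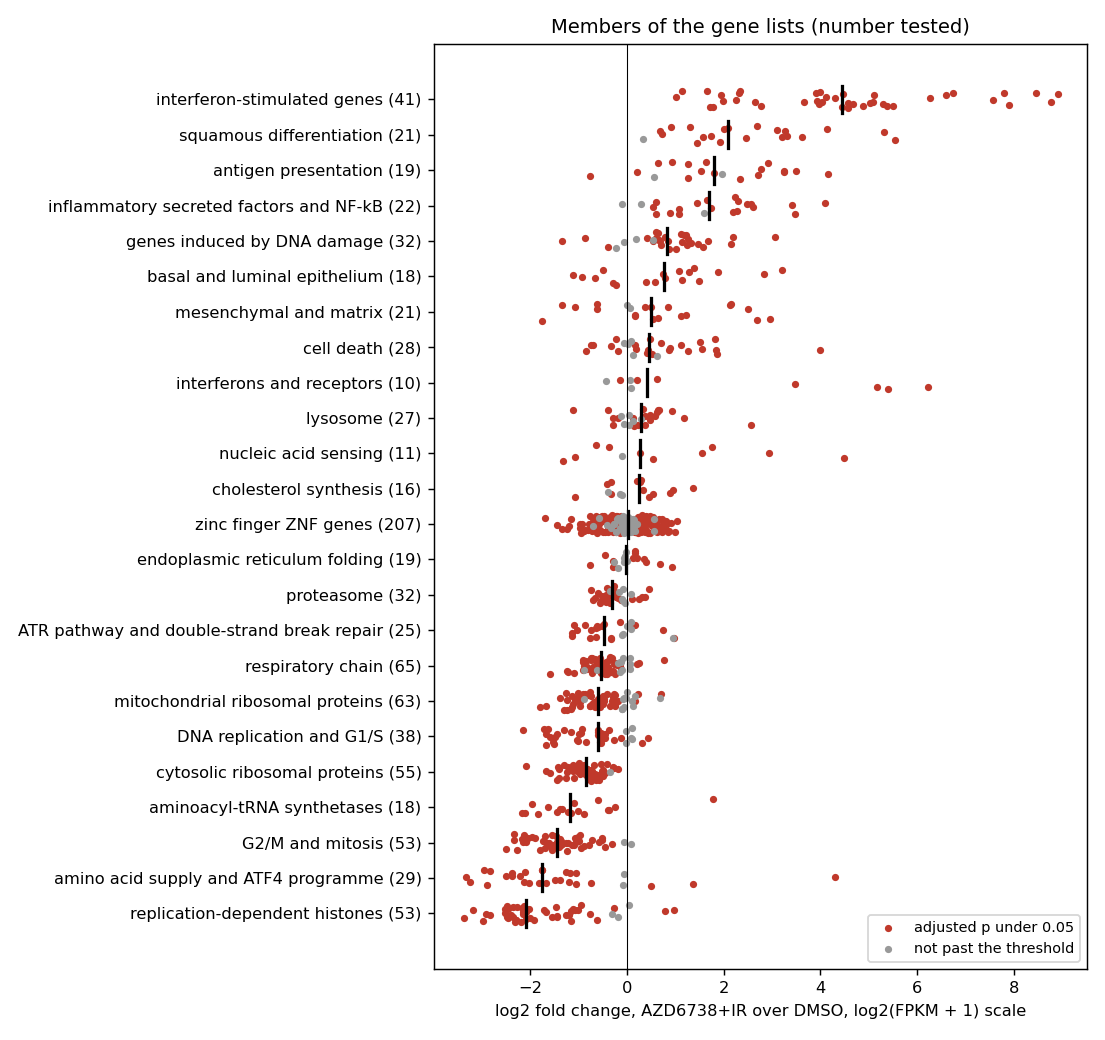
Each point is a tested member of a gene list, placed by its log2 fold change of AZD6738+IR over DMSO, with the number tested in brackets and the list's median as a black bar. Red points passed an adjusted p of 0.05 and grey points did not. The lists run from interferon-stimulated genes, with a median of 4.45, to replication-dependent histones, with a median of -2.09.

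Genes known to be induced by DNA damage, many of which arrest the cell cycle, were mostly higher: 25 of 32 tested were higher and 3 lower, with a median log2 fold change of 0.82, against 0.49 in IR. CDKN1A (chr6:36676463-36687332), the cyclin-dependent kinase inhibitor p21, stood at 495 and 427 FPKM in AZD6738+IR, at 310 and 295 FPKM in IR, at 79.4 and 78.9 FPKM in AZD6738, and at 55.2 and 53.1 FPKM in DMSO. It was 8.52-fold above DMSO (limma adjusted p = 1.55e-06) and 1.53-fold above IR (limma adjusted p = 0.00124). MDM2, a ubiquitin ligase, stood at 126 and 130 FPKM in AZD6738+IR, against 42.1 and 42.9 FPKM in DMSO.

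Genes of G2/M and mitosis fell almost without exception: 51 of 53 tested were lower, and the 2 others, CKAP2 and WEE1, did not pass. Their median log2 fold change was -1.43, against -0.81 in IR. CENPF (chr1:214603195-214664571), a kinetochore protein, stood at 2.85 and 3.18 FPKM in AZD6738+IR, at 7.59 and 8.54 FPKM in IR, and at 22.1 and 21.1 FPKM in DMSO. TOP2A, the topoisomerase that separates sister chromatids, stood at 3.63 and 3.8 FPKM in AZD6738+IR, against 23 and 22.1 FPKM in DMSO, and BIRC5, or survivin, at 1.48 and 1.53 FPKM, against 12.2 and 11.2 FPKM. MKI67, the proliferation marker Ki-67, fell to 1.38 and 1.36 FPKM in AZD6738+IR, against 7.43 and 6.37 FPKM in DMSO. LMNB1, lamin B1 of the nuclear envelope, whose loss is used as a mark of senescence, fell to 1.31 and 1.22 FPKM in AZD6738+IR, against 8.63 and 8.52 FPKM in DMSO. In the test against IR 46 of the 53 genes were lower still, where 31.5% of all loci were. Mitotic genes often carry the CHR, written TTTGAA and read on either strand here, and 30 of the 47 promoters of this list held it (63.8%), against 9.75% of the named genes tested and 15.4% of all promoters. The stretch of TOP2A shows it on the strand opposite to the gene, as TTCAAA.
TOP2A, chr17:40418017-40418072, minus strand: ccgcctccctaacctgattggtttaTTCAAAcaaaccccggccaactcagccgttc

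DNA replication and G1/S genes fell less uniformly, with 31 of 38 tested lower and 2 higher and a median of -0.6. CDT1, which licenses origins, fell to 1.02 and 0.799 FPKM in AZD6738+IR, against 7.67 and 7.3 FPKM in DMSO. MCM6, a subunit of the replicative helicase, fell to 2.09 and 2.31 FPKM in AZD6738+IR, against 9.2 and 9.24 FPKM in DMSO. RRM1, the large subunit of ribonucleotide reductase, fell to 7.82 and 8.29 FPKM in AZD6738+IR, against 27.4 and 29.7 FPKM in DMSO. POLA2, a subunit of the primase complex, and GINS1, of the helicase, were the 2 that were higher, by 1.5-fold and 1.36-fold.

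Replication-dependent histones, which are made in S phase, gave the lowest list median, -2.09, against -1.12 in IR. Of 53 tested, 48 were lower and 2 higher. HIST1H1B (chr6:27866792-27867588), a linker histone, stood at 4.03 and 3.57 FPKM in AZD6738+IR, at 17.7 and 20.4 FPKM in IR, and at 49.5 and 47.5 FPKM in DMSO. It was 12.8-fold lower than in DMSO (log2 fold change -3.37 ± 0.09 SE, limma adjusted p = 1.83e-06) and was also lower than in IR (limma adjusted p = 3.46e-05). HIST1H3G fell to 3.74 and 4.93 FPKM in AZD6738+IR, against 47.9 and 46.3 FPKM in DMSO, and HIST1H3I to 2.04 and 2.23 FPKM, against 25 and 22.5 FPKM. HIST1H3B and HIST1H2AI were also among the 12 largest falls, with log2 fold changes of -2.92 and -2.84. The 2 that were higher, HIST2H2AA3 and HIST2H2AA4, are near-identical copies, and HIST2H2AA3 stood at 223 and 225 FPKM in AZD6738+IR, against 134 and 123 FPKM in DMSO. Copies of 1 histone type share sequence, so single members of this list are uncertain.

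In the ATR pathway and double-strand break repair, 16 of 25 tested genes were lower and 3 higher, with a median of -0.47. ATR itself stood at 5.52 and 5.72 FPKM in AZD6738+IR, at 8.12 and 7.94 FPKM in IR, at 5.86 and 6.1 FPKM in AZD6738, and at 5.89 and 6.23 FPKM in DMSO. Against DMSO it did not pass (log2 fold change -0.09 ± 0.04 SE, limma adjusted p = 0.0983), and it was lower than in IR (limma adjusted p = 0.000521). AZD6738 blocks the kinase, so its messenger RNA does not check the labels. CHEK1, the main target kinase of ATR, fell to 1.63 and 1.63 FPKM in AZD6738+IR, against 2.07 and 2.27 FPKM in IR and 4.35 and 4.79 FPKM in DMSO. PRKDC, the catalytic subunit of the end-joining kinase, fell to 16.9 and 16.5 FPKM in AZD6738+IR, against 38.3 and 37.3 FPKM in DMSO, and PARP1, a sensor of strand breaks, to 45.6 and 47.1 FPKM, against 101 and 103 FPKM. In IR PRKDC stood at 31.9 and 32.2 FPKM and PARP1 at 74.1 and 76.1 FPKM. BRIP1, a helicase that binds BRCA1, rose to 2.33 and 2.33 FPKM in AZD6738+IR, against 0.819 and 0.596 FPKM in DMSO, and it reached the filter only through the AZD6738+IR libraries.

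Squamous differentiation genes were higher in AZD6738+IR, and their median in IR was of a similar size. Of 21 tested, 20 were higher in AZD6738+IR, with a median log2 fold change of 2.08, against 2.3 in IR. Of the 21, 1 reached the filter only through the AZD6738+IR libraries. In the test of AZD6738+IR against IR itself, 10 of the 21 were higher and 3 lower, where 19.6% of all loci were higher and 31.5% lower. S100A7 (chr1:153457744-153460651), the antimicrobial protein psoriasin, stood at 156 and 152 FPKM in AZD6738+IR, at 185 and 142 FPKM in IR, and at 2.25 and 2.4 FPKM in DMSO. It was 66.1-fold above DMSO (limma adjusted p = 4.58e-06), and its AZD6738+IR libraries lay within the range of IR (limma adjusted p = 0.778). S100A8, a calgranulin, stood at 1132 and 1128 FPKM in AZD6738+IR, at 1421 and 1237 FPKM in IR, and at 170 and 180 FPKM in DMSO. PI3, the protease inhibitor elafin, stood at 1203 and 903 FPKM in AZD6738+IR, at 756 and 621 FPKM in IR, and at 58.8 and 58.4 FPKM in DMSO. It was 1.53-fold above IR (limma adjusted p = 0.0312). LCN2, a lipocalin that binds siderophores, stood further above IR than PI3, with 122 and 110 FPKM in AZD6738+IR, 34.1 and 29.3 FPKM in IR, and 1.78 and 2.12 FPKM in DMSO. LCN2 was 3.66-fold above IR (limma adjusted p = 6.76e-05).

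Epithelial keratins and contractile genes changed beside them. Of 18 basal and luminal genes 12 were higher and 6 lower, with a median log2 fold change of 0.77, against 0.52 in IR. KRT8, a keratin of simple epithelium, rose to 336 and 310 FPKM in AZD6738+IR, against 44 and 45.5 FPKM in DMSO, and KRT17 to 3360 and 3112 FPKM, against 1165 and 1137 FPKM. In IR KRT8 stood at 135 and 135 FPKM and KRT17 at 1710 and 1709 FPKM. CD24, a surface protein, rose to 256 and 244 FPKM in AZD6738+IR, against 23.4 and 29.1 FPKM in DMSO. It stood at 219 and 217 FPKM in IR, and the difference from IR did not pass (limma adjusted p = 0.172). TP63, the master factor of basal cells, fell to 5.27 and 4.69 FPKM in AZD6738+IR, against 7.98 and 7.32 FPKM in IR and 12.2 and 11.7 FPKM in DMSO. Of 21 mesenchymal and matrix genes 14 were higher and 5 lower, with a median of 0.5, against 0.41 in IR. TAGLN, an actin-binding protein of contractile cells, rose to 17.7 and 16.9 FPKM in AZD6738+IR, against 8.73 and 8.46 FPKM in IR and 1.38 and 1.31 FPKM in DMSO. VIM, vimentin, moved the other way, to 47.7 and 45.2 FPKM in AZD6738+IR, against 158 and 160 FPKM in DMSO, and SNAI2, a repressor of epithelial genes, fell to 8.83 and 8.75 FPKM, against 24.2 and 23.4 FPKM. Most of these 2 falls was present in IR, with VIM at 57.8 and 56.1 FPKM and SNAI2 at 10.3 and 10.2 FPKM. The members of this list moved in both directions.

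**Figure D4:**
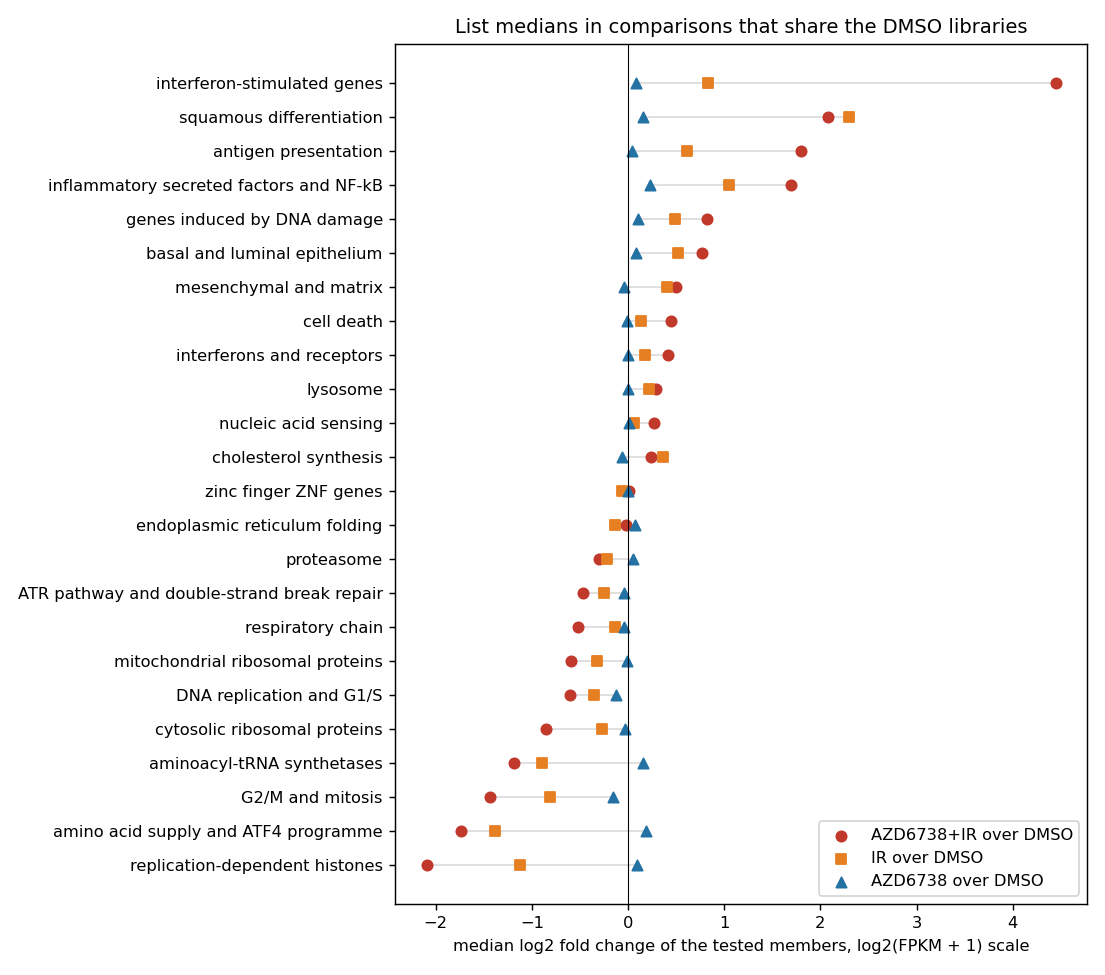
For each gene list the median log2 fold change of its tested members is given over DMSO, for AZD6738+IR (circles), IR (squares) and AZD6738 (triangles). The 3 comparisons share the DMSO libraries. Interferon-stimulated genes had medians of 4.45, 0.83 and 0.08, whereas squamous genes had 2.08 in AZD6738+IR and 2.3 in IR.

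Amino acid supply genes, many of them targets of the stress factor ATF4, fell steeply. Of 29 tested, 24 were lower and 3 higher, with a median log2 fold change of -1.74, against -1.38 in IR. ASNS (chr7:97851677-97928441), asparagine synthetase, stood at 8.34 and 7.24 FPKM in AZD6738+IR, at 11.7 and 8.84 FPKM in IR, and at 84.9 and 79.6 FPKM in DMSO. It was 10.6-fold lower than in DMSO (log2 fold change -3.24 ± 0.13 SE, limma adjusted p = 5.61e-06), and the difference from IR did not pass (limma adjusted p = 0.0633). ALDH1L2, a mitochondrial enzyme of folate metabolism, fell to 2.4 and 2.29 FPKM in AZD6738+IR, against 23.4 and 21.9 FPKM in DMSO. PSAT1, of serine synthesis, fell to 8.29 and 8.54 FPKM in AZD6738+IR, against 73.7 and 69.1 FPKM in DMSO. EIF4EBP1, the repressor of cap-dependent translation, fell to 20.8 and 19 FPKM in AZD6738+IR, against 228 and 193 FPKM in DMSO. TRIB3, a pseudokinase induced by ATF4, fell to 17.7 and 16.1 FPKM in AZD6738+IR, against 146 and 119 FPKM in DMSO, and ATF4 to 142 and 137 FPKM, against 395 and 389 FPKM. ATF3 (chr1:212565407-212620777), another stress-induced factor of that list, went against it, with 33 and 35.5 FPKM in AZD6738+IR, 3.05 and 2.58 FPKM in IR, and 0.73 and 0.873 FPKM in DMSO. PPP1R15A, which helps to restart translation after stress, rose to 41.2 and 38.9 FPKM in AZD6738+IR, against 16 and 14 FPKM in DMSO. The ATF4 and C/EBP composite core, TGATGNAA on either strand, was present in 6 of 25 promoters of the list (24.0%), against 1.72% of the named genes tested and 3.67% of all promoters. It is shown for ASNS, where it lies 68 bases before the start that the promoter table uses.
ASNS, chr7:97872444-97872501, minus strand: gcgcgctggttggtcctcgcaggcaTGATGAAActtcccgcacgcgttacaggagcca

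Aminoacyl-tRNA synthetases, which charge tRNA with amino acids, followed the same direction with a single exception. Of 18 tested, 17 were lower, with a median of -1.18, against -0.89 in IR. EPRS stood at 51.7 and 55 FPKM in AZD6738+IR, at 104 and 100 FPKM in IR, and at 229 and 235 FPKM in DMSO. IARS fell to 35.2 and 38.3 FPKM in AZD6738+IR, against 181 and 157 FPKM in DMSO, and GARS to 43 and 40.9 FPKM, against 172 and 158 FPKM. WARS (chr14:100333790-100376327), the tryptophan enzyme, which interferon is known to induce, stood at 205 and 243 FPKM in AZD6738+IR, at 27.7 and 25.5 FPKM in IR, and at 65.7 and 62.1 FPKM in DMSO. It was 3.5-fold above DMSO (limma adjusted p = 1.28e-05) while the IR libraries lay below DMSO.

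**Figure D5:**
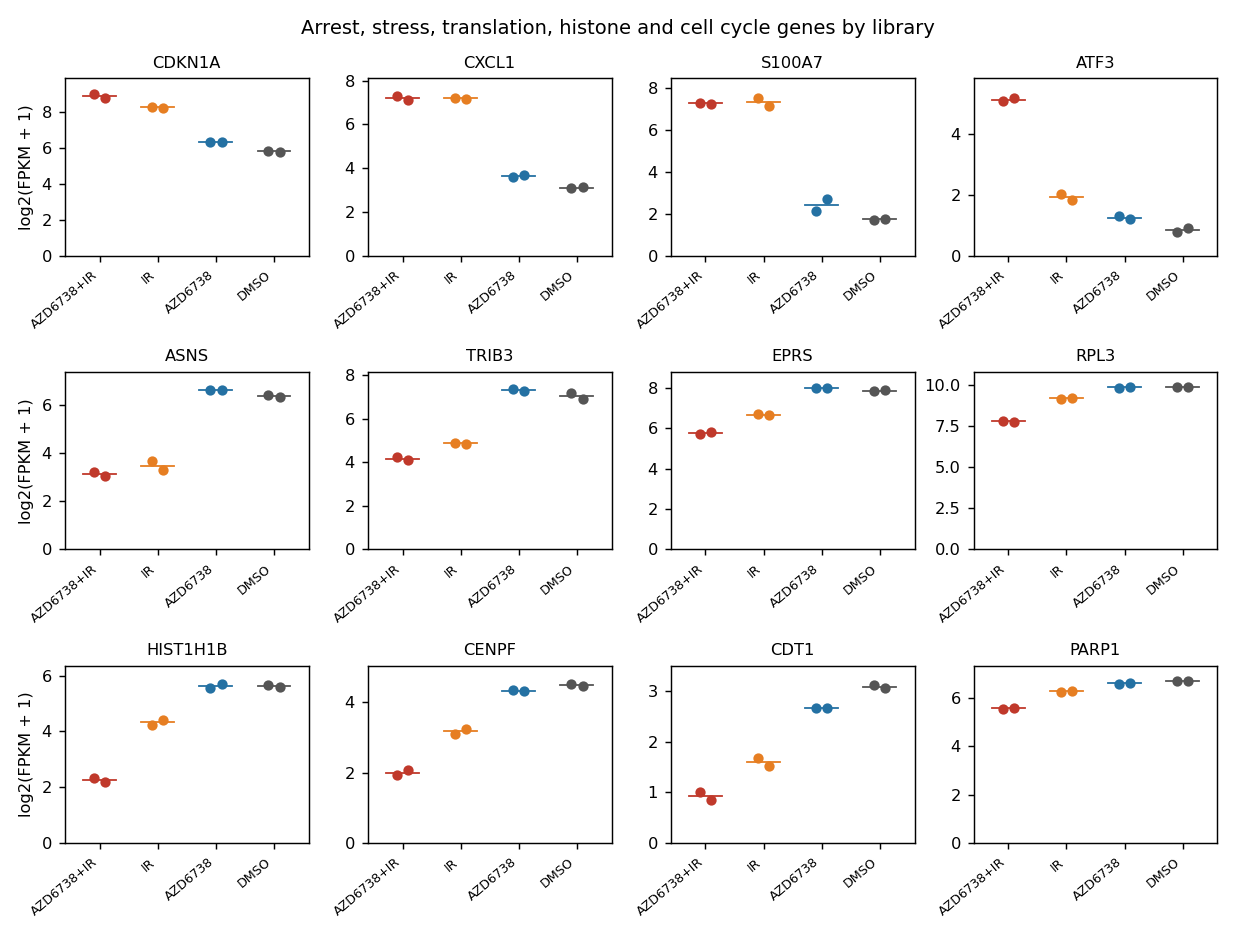
Each panel gives log2(FPKM + 1) of a gene in the 8 libraries, as points, with the group mean as a line and the groups AZD6738+IR, IR, AZD6738 and DMSO from left to right. CXCL1 and S100A7 are about as high in IR as in AZD6738+IR, and ATF3 is high in AZD6738+IR alone among the groups. In AZD6738+IR and in IR the 8 genes from ASNS to PARP1 lie below DMSO. The vertical scale differs between panels.

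Ribosomal protein genes fell by smaller amounts from very high levels. Of 55 cytosolic members 54 were lower, with a median log2 fold change of -0.85, against -0.27 in IR, and RPL39 did not pass. RPL3 (chr22:39312882-39319623), of the large subunit, stood at 226 and 217 FPKM in AZD6738+IR, at 583 and 608 FPKM in IR, and at 936 and 945 FPKM in DMSO. It was 4.25-fold lower than in DMSO (limma adjusted p = 6.94e-07) and lower than in IR (limma adjusted p = 5.89e-06). RPL5, which binds the 5S rRNA, stood at 353 and 326 FPKM in AZD6738+IR, against 1053 and 1112 FPKM in DMSO. At the other end RPS19 was 1.14-fold lower, with 733 and 752 FPKM in AZD6738+IR, against 851 and 845 FPKM in DMSO. Ribosomal protein genes have many processed pseudogenes, so their levels are uncertain. Against IR 49 of the 55 were lower, where 31.5% of all loci were, with a median of -0.6. Mitochondrial ribosomal proteins gave 48 lower and 3 higher of 63, with a median of -0.59. MRPL3 fell to 31.9 and 32 FPKM in AZD6738+IR, against 104 and 103 FPKM in DMSO, and MRPL49 rose to 27.7 and 26.6 FPKM, against 16.4 and 16.3 FPKM.

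Genes of the respiratory chain were lower in 51 of 65 cases and higher in 3, with a median of -0.52, against -0.14 in IR. CYC1, cytochrome c1 of complex III, fell to 120 and 97.7 FPKM in AZD6738+IR, against 332 and 324 FPKM in DMSO. ATP5G2, of the ATP synthase ring, fell to 63.5 and 57.9 FPKM in AZD6738+IR, against 141 and 142 FPKM in DMSO. The 3 that were higher, COX7A2, COX6B1 and SDHC, rose by 1.7-fold at most. Without library A of AZD6738+IR all 3 lost their call: the limma adjusted p was 0.0951 for the COX6B1 log2 fold change, 0.081 for the COX7A2 log2 fold change and 0.0545 for the SDHC log2 fold change. Each was also lost without library A of DMSO, and some without other libraries. The proteasome had 20 of 32 genes lower and 5 higher, and the median was -0.3. PSMA6, a subunit of the core ring, rose to 123 and 121 FPKM in AZD6738+IR, against 90.9 and 87 FPKM in DMSO, whereas PSMD4, a ubiquitin receptor of the cap, fell to 67.7 and 65.1 FPKM, against 111 and 112 FPKM.

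The remaining lists had medians close to 0. Of 16 cholesterol synthesis genes 9 were higher and 4 lower, with a median of 0.24. HMGCS1, an early enzyme of the pathway, rose to 19.3 and 18 FPKM in AZD6738+IR, against 8.21 and 10.2 FPKM in DMSO, and MVK, mevalonate kinase, fell to 8.95 and 8.95 FPKM, against 19.8 and 20 FPKM. Of 19 folding genes of the endoplasmic reticulum 8 were higher and 4 lower, with a median of -0.02 that was between 0.07 and 0.16 under the other scalings. Of 27 lysosome genes 16 were higher and 5 lower, with a median of 0.29. CTSS, a protease that trims antigen and reached the filter only through the AZD6738+IR libraries, rose to 5.22 and 6.13 FPKM in AZD6738+IR, against 0.117 and 0.151 FPKM in DMSO, while CTSH, a related protease, fell to 12.9 and 12.7 FPKM, against 28.5 and 29.6 FPKM. Zinc finger genes named ZNF moved in both directions, with 73 of 207 higher and 67 lower and a median of 0.01. Of the 207, 8 reached the filter only through the AZD6738+IR libraries, which adds to the higher side. GAPDH, a glycolytic enzyme often used as a reference, stood at 3088 and 2687 FPKM in AZD6738+IR, against 3215 and 3203 FPKM in DMSO, and did not pass (limma adjusted p = 0.0948).

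Of the 205 genes that were higher by at least 2, 123 were on none of the lists, as were 23 of the 79 that were lower by at least 2. Interferon-stimulated genes made up 34 of the 205, squamous genes 12 and inflammatory genes 10, while histones made up 30 of the 79, amino acid genes 12 and mitotic genes 10. Some of the 205 reached the filter only through the AZD6738+IR libraries, so these shares are a description only. The largest rises on no list, chosen after their values were seen, began with HRASLS2, a phospholipase, at 77.8 and 81 FPKM in AZD6738+IR, against 0.428 and 0.657 FPKM in DMSO. BATF2, a transcription factor known to respond to interferon, stood at 36.6 and 32.2 FPKM in AZD6738+IR, against 0.0384 and 0.035 FPKM in DMSO. LAMP3, a lysosomal membrane protein of mature dendritic cells, stood at 38.4 and 33.6 FPKM in AZD6738+IR, against 0.187 and 0.134 FPKM in DMSO. APOL1 and TRIM21, both known as interferon-responsive, were among the first 10 as well: TRIM21 stood at 104 and 101 FPKM in AZD6738+IR, against 3.2 and 6.12 FPKM in DMSO. BATF2, LAMP3 and APOL1 reached the filter only through the AZD6738+IR libraries and so had to differ. GJA5, a connexin, and IGFL1, a growth factor-like protein, were of another kind, since most of their rise was present in IR: GJA5 was 44.5-fold above DMSO, and its log2 fold change was 4.53 over DMSO and 0.57 over IR. Among falls on no list the largest was RPL22L1, a paralog of a ribosomal protein, at 9.41 and 6.97 FPKM in AZD6738+IR, against 87.6 and 44.4 FPKM in DMSO. Another was ODC1, ornithine decarboxylase of polyamine synthesis, at 13.4 and 12.6 FPKM in AZD6738+IR, against 92.8 and 87.5 FPKM in DMSO. NPM3, a nucleolar chaperone, fell to 12.2 and 9.49 FPKM in AZD6738+IR, against 69.8 and 66.3 FPKM in DMSO. PRR11, a cell cycle gene, fell to 0.682 and 0.535 FPKM in AZD6738+IR, against 8.06 and 8.14 FPKM in DMSO. LSM2, a component of the snRNP ring, was called lower from libraries that disagree, with 0 and 6.59 FPKM in AZD6738+IR, against 21.3 and 14.2 FPKM in DMSO (limma adjusted p = 0.0344), and the LSM2 log2 fold change lost its call when any of the 6 libraries outside AZD6738+IR was left out (limma adjusted p between 0.0521 and 0.131). It was -1.28 without library A and -4.2 without library B of AZD6738+IR, against -2.74 with both.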

How the data were processed

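Per the labels' protocols, total RNA was cleared of rRNA, made into libraries with a stranded kit and read as 75-base paired ends. The submitters' processing notes name FastQC, HISAT2 2.0.4, StringTie 1.3.4d and hg38, without saying what each did. For the 8 libraries the authors deposited 1 table, whose header gives no unit. Its deposited values are treated as FPKM here, from their range and the named tools, and TPM cannot be told apart from them. Read depth is therefore unknown, and no counting interval is given. P-values and q-values that the authors deposited in the same table name no comparison and were not used. The table held 0 value columns of no sample. Library letters could not be matched to replicate numbers in the labels.

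Testing was limited to loci averaging 1 FPKM or more over the 8 libraries and was done with limma 3.58.1 (R 4.3.3) on log2(FPKM + 1), with an intensity trend, all 8 libraries in 1 fit and Benjamini-Hochberg adjustment over 12809 loci. Fold changes on this scale understate the change of low genes, and stated folds are ratios of mean FPKM. Tables and figures were made with Python 3.11.15, pandas 2.3.3 and matplotlib 3.10.9, and the fit was tested on simulated data. Genes with values were drawn mainly from 160 given by a rule: the 12 largest called rises and falls, provided the higher group averaged 5 FPKM or more and libraries did not overlap, up to 3 of each direction per list, and a fixed set of sentinels such as ATR and ISG15. Further list members and genes on no list were chosen after their values were seen. The members and gene lists were chosen with earlier results of these data known. RefSeq entries matched 9412 of the 9463 named genes. Libraries sharing a letter had deviation correlations between -0.0513 and 0.158, so the letters were not taken as pairs. Alternatives covered scaling, pseudocount, filter, the groups fitted, the trend, a replicate block and leaving out each library. Some genes are not reported here.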

Additional observations from a re-analysis of the deposited data

Results flagged for a closer look

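Loci without a symbol, which none of the named comparisons uses, also changed. In AZD6738+IR against DMSO, 1092 of the 4143 such loci tested were called higher and 1776 lower, in limma's test at an adjusted p under 0.05, which is 69.2% of them. By at least 1 on the log2 scale, 439 were higher and 357 lower. MSTRG.2379 stood at 1010 and 1030 FPKM in AZD6738+IR, at 8.84 and 10.3 FPKM in IR, and at 1.05 and 1.36 FPKM in DMSO (log2 fold change 8.86 ± 0.088 SE, limma adjusted p = 2.07e-07). MSTRG.17182 stood at 190 and 190 FPKM in AZD6738+IR, against 1.32 and 1.95 FPKM in DMSO. MSTRG.17979 was listed at 0 in both AZD6738+IR libraries and stood at 65.2 and 104 FPKM in DMSO, and MSTRG.987 stood at 1.88 and 1.61 FPKM in AZD6738+IR, against 83.6 and 83.7 FPKM in DMSO. The table gives no position for these assembled loci, so they are not named here. With 2 libraries in each group, a rule that finds the outlying sample within a group could not be applied.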

How the results depend on the processing

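The 160 named genes were refitted under 19 other settings: 2937 results kept direction and side of the threshold, 68 lost and 2 gained the call, and 2 changed sign, all in 13 genes. The 2 were CD14 (0.00) and IL10RB (0.01) under quantile normalization. With a mean of at least 5, fewer genes were tested, giving 1325 higher and 2618 lower against DMSO, 952 higher against IR, and 1290 higher and 2640 lower against AZD6738. Leaving out 1 library gave 2103 to 2341 genes higher and 3721 to 4036 lower than in DMSO. With library letter as replicate block the counts were 2380 and 4054, the correlations by letter were mostly under 0.1, and COX6B1, IL10RB and MRPS18C lost their call. Centring libraries moved the median of named genes to -0.07. Without library B of AZD6738+IR all 41 interferon-stimulated genes stayed higher, with a median of 4.49, and 51 mitotic genes lower. Depth is unknown, so values near 0 are the least certain.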

Other observations

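Transcript classes were also set side by side for AZD6738+IR against DMSO, where 27.1% of all loci were called higher and 45.6% lower. Of 27 small nuclear RNA genes tested, 12 were higher, with a median log2 fold change of 0.29, whereas 7965 protein-coding genes had a median of -0.16, with 2228 higher and 3822 lower. Of 176 small nucleolar RNA genes, 24 were higher (13.6%) and 48 lower (27.3%), with a median of -0.14. Of 227 long non-coding RNA genes, 61 were higher (26.9%) and 90 lower (39.6%), which is also near the shares of all loci. These classes come from RefSeq, and small RNAs can overlap the introns of host genes.

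The median also moved with the level of a gene. With the protein-coding genes split into 5 classes of 1593 by mean FPKM, from the lowest to the highest, it was -0.05, -0.13, -0.18, -0.25 and -0.31, and the share called lower rose to 56.9% in the highest, against 36.2% in the lowest. The share called higher was 27.0% in the highest and 32.3% in the lowest. The log2(FPKM + 1) scale understates changes of low genes, and some genes reached the filter only through the AZD6738+IR libraries. How far these 2 limits make the trend was not tested.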
